A study of Mus musculus with 19 samples.

Results

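Immediate early genes are the genes that a stimulated cell transcribes within minutes, before any new protein is needed, and in hippocampus they are the usual readout of recent neuronal activity. The set described here has 32 members, named by symbol as genes of the immediate early and activity-induced programme, of 19938 genes measured in all. No measured difference between groups entered the choice of members, although earlier results of these data were known when it was made. Each of the 32 was found in the array annotation with exactly 1 probe set that carries its symbol alone, so every member is accounted for and none was filtered out.

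Calcium entry and growth factor signals reach these genes through kinases that phosphorylate CREB, SRF and their partners at sites already bound in the promoters. The first wave encodes mainly transcription factors (the AP-1, EGR and NR4A families and Npas4), effectors that act at the synapse (Arc, Homer1, Plk2) and inhibitors that end the signal, such as the dual-specificity phosphatases. In resting hippocampus their transcripts are scarce in most cells and abundant in a few, and they rise and decay with what the animal has experienced shortly before the tissue is taken.

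The data are 19 Affymetrix arrays of hippocampal RNA from C57BL/6J mice 6 months old. Wild-type littermates gave 4 arrays on control chow and 5 on ibuprofen chow, and mice of the genotype APPSwe-PS1deltaE9, called APP-PS1 here, gave 5 on each diet. That genotype, by its name, combines the Swedish mutation of the amyloid precursor protein with a presenilin 1 lacking an exon, and transgenes of this kind, usually driven by the prion protein promoter, lead to amyloid plaques, so it models amyloid deposition and not the whole of Alzheimer disease. Ibuprofen, an inhibitor of the cyclooxygenases, was mixed into the chow at 375 ppm and eaten from month 3 to month 6, and controls ate the same formulation with no drug added. Sex, litter and the handling of the animals before tissue was taken are not in the labels. Nothing in the labels says beyond doubt that each array is a separate animal, so p-values measure the spread between these samples. Values are the authors' log2 summaries, on which 1 unit is a doubling, and the number of arrays limits the precision.

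App, which the transgene adds to, lay at 13.16 to 13.40 over the wild-type arrays and at 13.55 to 13.64 over the APP-PS1 arrays, with no overlap, so the genotype labels held in every array. Prnp, the prion protein gene, lay at 12.67 to 12.83 and at 13.31 to 13.44 in the same order. Markers of the labelled tissue were present, with Prox1 of dentate granule cells at 10.10 to 10.90 and Wfs1 of CA1 pyramidal cells at 10.79 to 11.68. Wild-type ibuprofen replicates 1 and 5 and APP-PS1 control replicate 1 had median correlations with the other arrays of 0.987, 0.974 and 0.9895 and stand apart from the rest, whose median correlations were above 0.99.

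Promoters are shown for 4 of the members, because genes of this programme are known to be switched on through sites of this kind near their starts. Each window runs from 250 bases before to 50 bases after the start in RefSeq's GRCm38.p6 annotation, 5′ to 3′ along the gene's own strand. Capitals mark the CRE half-site TGACG and the EGR site GCGNGGGCG, each searched on both strands, and the TATA box TATAAA, searched on the strand shown alone. Fos lies at chr12:85473640-85473939 on the plus strand, Npas4 at chr19:4989922-4990221 on the minus strand, Nr4a1 at chr15:101266596-101266895 on the plus strand and Junb at chr8:84978699-84978998 on the minus strand.
Fos: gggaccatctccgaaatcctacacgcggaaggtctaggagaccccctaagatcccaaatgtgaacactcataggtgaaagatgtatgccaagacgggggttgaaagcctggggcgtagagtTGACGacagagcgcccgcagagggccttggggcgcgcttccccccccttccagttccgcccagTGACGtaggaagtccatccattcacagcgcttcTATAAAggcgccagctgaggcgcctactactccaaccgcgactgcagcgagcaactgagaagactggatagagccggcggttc
Npas4: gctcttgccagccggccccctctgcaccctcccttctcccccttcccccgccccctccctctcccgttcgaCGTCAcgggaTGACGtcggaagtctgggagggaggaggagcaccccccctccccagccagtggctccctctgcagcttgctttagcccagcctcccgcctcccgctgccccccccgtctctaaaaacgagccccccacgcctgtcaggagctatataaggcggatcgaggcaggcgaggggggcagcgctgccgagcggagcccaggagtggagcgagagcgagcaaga
Nr4a1: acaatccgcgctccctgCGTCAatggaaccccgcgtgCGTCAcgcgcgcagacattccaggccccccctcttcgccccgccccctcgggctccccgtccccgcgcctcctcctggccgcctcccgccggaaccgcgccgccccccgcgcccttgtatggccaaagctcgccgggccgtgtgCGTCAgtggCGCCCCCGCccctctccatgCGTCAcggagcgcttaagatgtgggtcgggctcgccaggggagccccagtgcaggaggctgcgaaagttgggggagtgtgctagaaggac
Junb: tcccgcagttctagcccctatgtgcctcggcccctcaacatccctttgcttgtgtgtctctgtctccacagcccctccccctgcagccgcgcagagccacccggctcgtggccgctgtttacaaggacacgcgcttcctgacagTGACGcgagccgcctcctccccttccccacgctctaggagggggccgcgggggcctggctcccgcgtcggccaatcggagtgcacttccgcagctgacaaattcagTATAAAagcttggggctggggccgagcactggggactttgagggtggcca
The Fos window holds 2 CRE half-sites and a TATA box, that of Npas4 holds 2 CRE half-sites close together, that of Nr4a1 holds 4 with 1 EGR site before the last of them, and that of Junb holds 1 with a TATA box. Windows were held for 26 of the 32 members. At least 1 CRE half-site was found in 21 of these 26 members (80.8%), against 23.0% of all 27025 genes with a window and 28.0% of those measured on the arrays. The EGR site stood in 9 of 26 members (34.6%) and 6.27% of all genes, the full CRE TGACGTCA in 4 of 26 (15.4%) and 2.03%, the CArG box in 2 of 26 and 1.81%, and the AP-1 site TGANTCA in 1 of 26 and 8.97%. These are counts of letters in a short window, given as a description, and the share in promoters of like base composition was not computed.

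The members' levels differed between single arrays within the groups. In 4 arrays the members lay together above their own means over all 19 arrays, by an average of 0.23 in wild-type ibuprofen replicate 5, 0.19 and 0.13 in wild-type control replicates 3 and 2, and 0.17 in APP-PS1 ibuprofen replicate 3. In the other arrays this average lay between -0.10 and 0.02. The 4 high arrays were 2 of the 4 wild-type control, 1 of the 5 wild-type ibuprofen, 1 of the 5 APP-PS1 ibuprofen and 0 of the 5 APP-PS1 control arrays. Of the 32 members, 28 lay above their mean in wild-type control replicate 2, 25 in wild-type control replicate 3, 26 in APP-PS1 ibuprofen replicate 3 and 28 in wild-type ibuprofen replicate 5. In APP-PS1 ibuprofen replicate 3, 24 members had the highest value of their group, which 13.7% of all genes had there. For wild-type control replicate 3 the count was 18 members against 23.8% of all genes, for wild-type control replicate 2 it was 10 members against 25.9%, near the background, and for wild-type ibuprofen replicate 5 it was 23 members against 51.7% of all genes. The last array thus stood high for a large share of the whole table, while the high values in the other 3 were not shared by the table, whose median deviation there was -0.02 to -0.01.

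**Figure D1:**
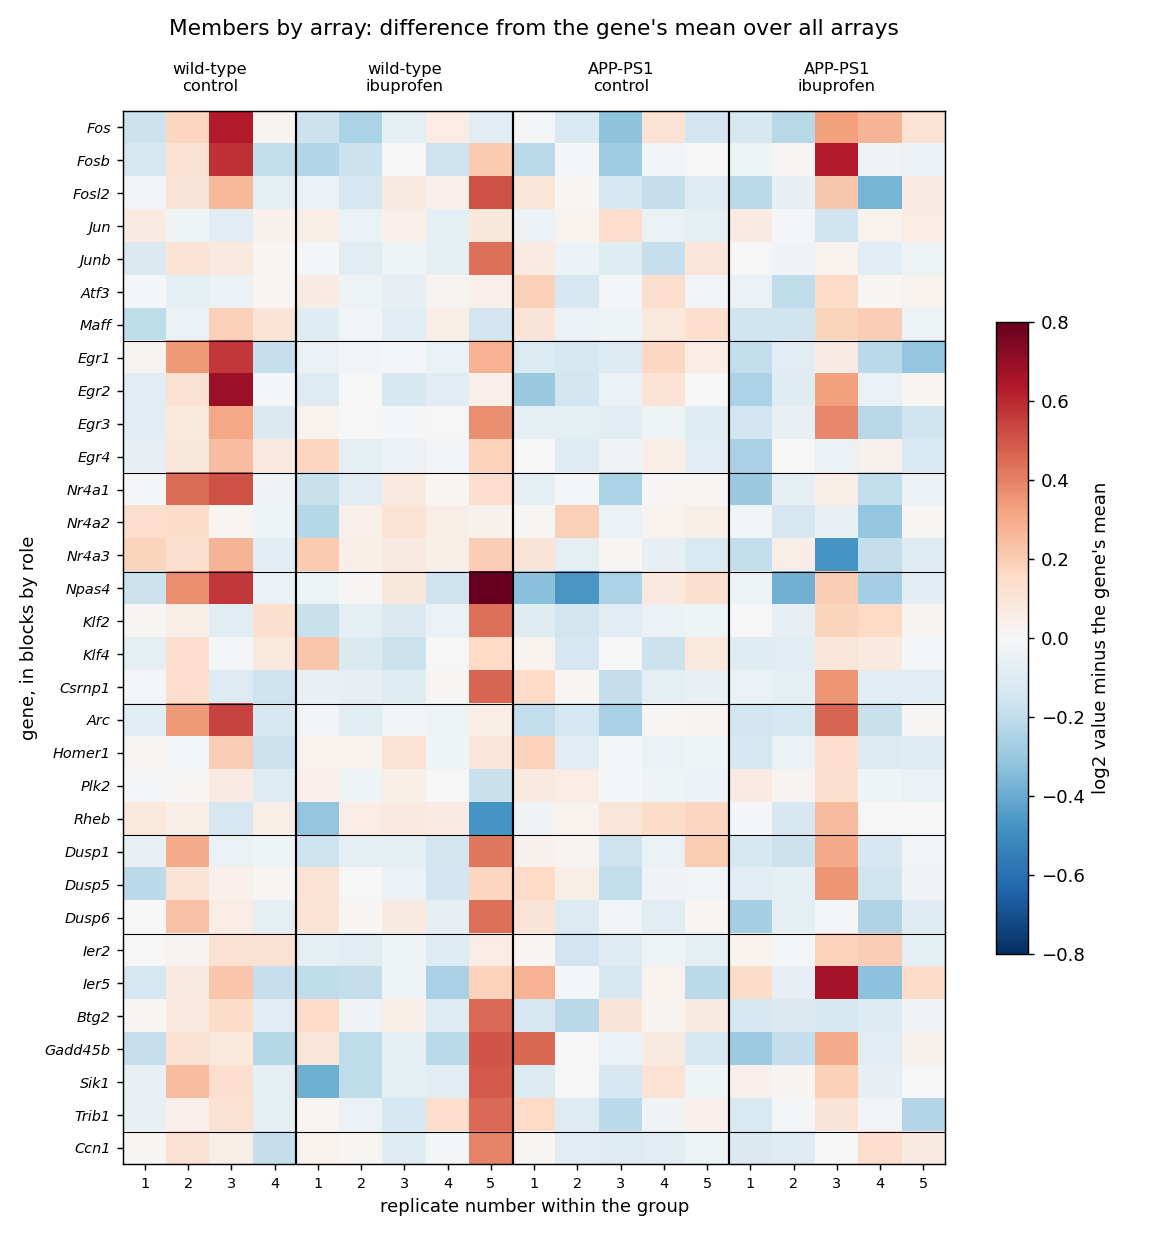
Each cell is the log2 value of 1 member (row) on 1 array (column) minus that gene's mean over all 19 arrays, with arrays in blocks by group and genes in blocks by role. Red columns stand in wild-type control replicates 2 and 3, wild-type ibuprofen replicate 5 and APP-PS1 ibuprofen replicate 3, where the members averaged 0.13 to 0.23 above their means.

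Markers of neighbouring tissue moved with this pattern. Of the 12 neocortex and subiculum markers 11 were measured, and the same 4 arrays had the 4 highest means of them, at 9.58 in wild-type control replicate 3, 9.47 in APP-PS1 ibuprofen replicate 3, 9.44 in wild-type control replicate 2 and 9.44 in wild-type ibuprofen replicate 5. By group these means ran from 9.16 to 9.58 in wild-type control, 9.08 to 9.44 in wild-type ibuprofen, 9.27 to 9.39 in APP-PS1 control and 9.08 to 9.47 in APP-PS1 ibuprofen arrays. Over all arrays these markers had means from 7.50 for Nts to 10.80 for Fezf2, and without detection calls it is unknown here which of them stood at background. Dentate granule cell markers, all 10 measured, did not follow the members, being lowest of all arrays in APP-PS1 ibuprofen replicate 3 at 9.38 and highest in wild-type ibuprofen replicate 5 at 10.37. Choroid plexus markers, 12 of 14 measured, were at 10.38 in wild-type ibuprofen replicate 5 but at 7.74 in wild-type control replicate 3, and by group they ran from 7.74 to 9.48 in wild-type control, 7.69 to 10.38 in wild-type ibuprofen, 7.94 to 10.52 in APP-PS1 control and 8.08 to 10.23 in APP-PS1 ibuprofen arrays. The fits were therefore repeated with the neocortex and subiculum mean of each array as a covariate, and values from it are given beside some of the genes below. In whole tissue, fewer cells of a type and less RNA per cell cannot be told apart.

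**Figure D2:**
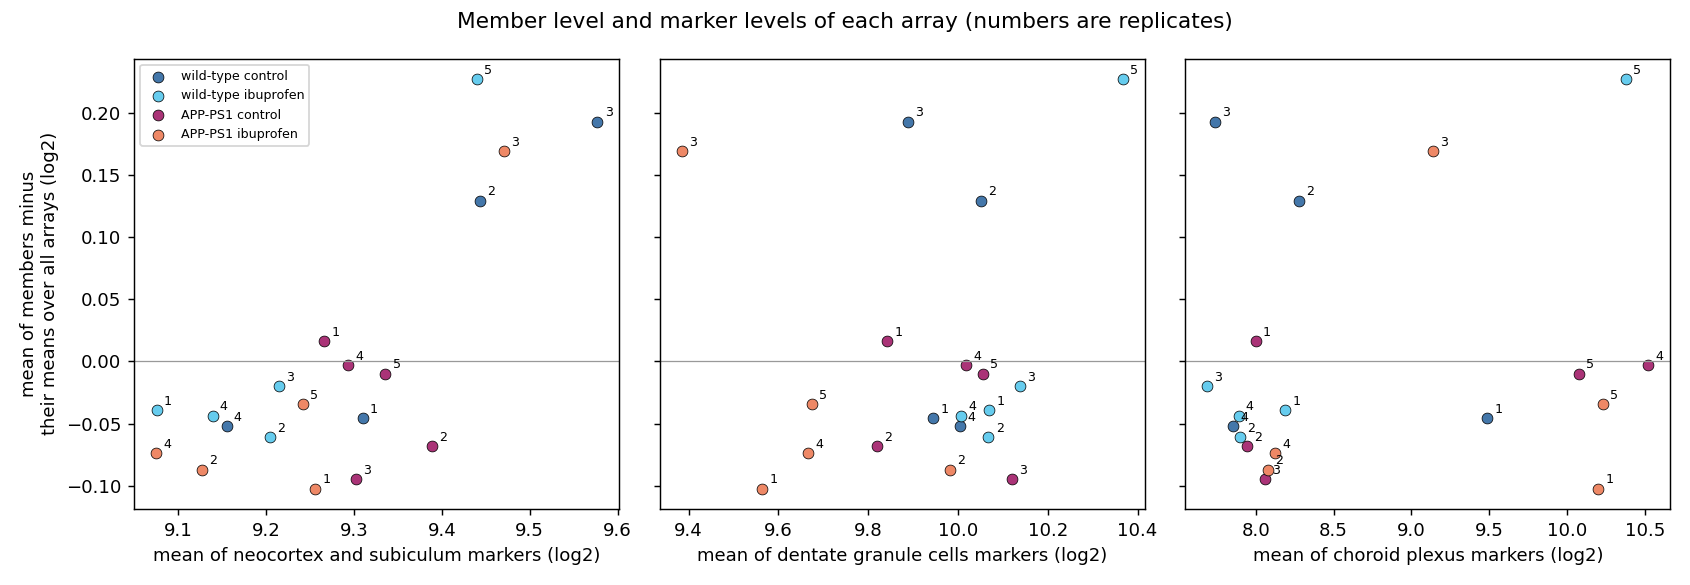
Each point is 1 array, numbered by replicate and coloured by group, with the mean deviation of the 32 members on the vertical axis (log2) and the mean of 1 marker list on the horizontal axis (log2). The 4 arrays with a member average of 0.13 or more lie furthest to the right for neocortex and subiculum markers, at 9.44 to 9.58, and are spread out for the other lists.

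Some members varied far more between arrays of a group than others. The SD within groups was 0.31 for Npas4, 0.25 for Fosb, 0.25 for Ier5 and 0.24 for Gadd45b, and 0.07 for Plk2, 0.08 for Jun and 0.08 for Ier2. Its median over members was 0.157, against 0.123 over all genes, and 24 of the 32 lay above that of all genes. Npas4, a factor induced almost only by neuronal depolarization, spanned 1.30 over the arrays. Jun, a partner of Fos in AP-1, spanned 0.30.

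Within groups a part of the members varied together with Arc, whose product sits at dendritic spines and removes AMPA receptors. Over all 19 arrays, the deviations of Fosb from its group means correlated with those of Arc at r = 0.90 (rho = 0.78), the highest value of all 19937 other genes. Egr2 at r = 0.85 (rho = 0.74), Nr4a1 at r = 0.83 (rho = 0.89), Egr3 at r = 0.82 (rho = 0.72) and Egr1 at r = 0.81 (rho = 0.68) followed in that order, and Pdlim1, which is not a member, stood just below Fosb at r = 0.86 (rho = 0.81). Next came Fam53b, Il17ra, Tshz2 and Tshz3, also not members, at r = 0.79, 0.75, 0.75 and 0.75 (rho = 0.69, 0.81, 0.54 and 0.44). Tshz2 is in the neocortex and subiculum marker list. Of 31 members 13 had r above 0.5 (41.9%), as had 1.88% of all genes. All 19 arrays enter these values, the 4 named above with their high levels, and they are a description without a test. The comparison with Arc was added after the values had been seen.

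Jun ran the other way, at r = -0.67 with Arc (rho = -0.57) and r = -0.57 with Fos (rho = -0.57). Its value was 11.18 in APP-PS1 ibuprofen replicate 3, the lowest of all arrays, and 11.25 in wild-type control replicate 3. Nr4a3 (r = -0.19) was the other member below 0 with Arc. With Fos itself, the founding AP-1 factor, 9 of 31 members had r above 0.5 (29.0%), as had 2.49% of all genes. The genes whose deviations were most like those of Fos were Wnt10a (r = 0.81, rho = 0.75), the member Maff (r = 0.77, rho = 0.71), Nxf7 (r = 0.76, rho = 0.75), Orm3 (r = 0.76, rho = 0.75), Adm (r = 0.76, rho = 0.80), Nmu (r = 0.74, rho = 0.69), Il4ra (r = 0.74, rho = 0.71), Plcxd1 (r = 0.74, rho = 0.75), Prr27 (r = 0.74, rho = 0.78) and Vill (r = 0.73, rho = 0.71). Egr2 (r = 0.72) and Arc (r = 0.72) came next among members. The table holds no detection call, so whether Fos, at 7.44 to 8.39, stood above background is unknown here. The same holds for the dimmer genes most like it. By mean level Nxf7 stood at percentile 6.73 of all genes, Orm3 at 12.7, Nmu at 14.9 and Prr27 at 18.9, while Wnt10a stood at 57.0.

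**Figure D3:**
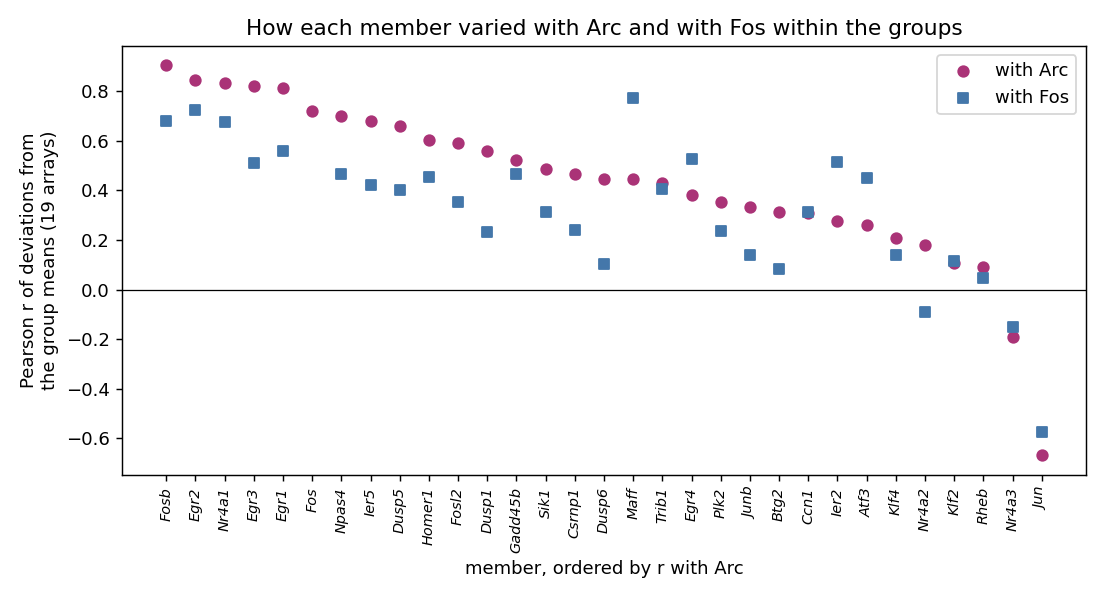
For each member, the points give the Pearson r of its deviations from the group means with those of Arc (circles) and of Fos (squares) over 19 arrays. Fosb, Egr2, Nr4a1, Egr3 and Egr1 lie above 0.8 with Arc, and Jun lies at -0.67.

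The first comparison asks how the genotype changed these genes on control chow. No member passed the adjusted threshold of 0.05 (limma, Benjamini-Hochberg over 19938 genes), where 2 genes did in all (0.01%). Most members lay lower in APP-PS1 hippocampus, with 24 of 32 differences below 0 and a median of -0.07, beside 42.1% of all genes below 0 and a median of 0.02. Under both median centring and quantile normalization 28 of the 32 were below 0, and 26 were without the 3 arrays that stand apart. With the neocortex and subiculum covariate 21 were below 0, with a median of -0.04. The median was -0.03 without wild-type control replicate 2 and -0.04 without wild-type control replicate 3. At an unadjusted p under 0.05 stood 2 members, both lower (6.25%), beside 1.07% of all genes lower and 5.87% in either direction. A count of 2 is too small to be weighed against these shares. All 4 EGR factors and all 3 NR4A receptors were below 0.

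Nr4a1, an orphan nuclear receptor known as Nur77, stood at 10.54, 10.99, 11.05 and 10.52 in wild-type control replicates 1 to 4 and at 10.47, 10.53, 10.29, 10.56 and 10.55 in APP-PS1 control replicates 1 to 5. Wild-type replicates 2 and 3 lay above every APP-PS1 array, and the other wild-type arrays lay among them. The difference was -0.29 ± 0.10 (SE), adjusted p = 0.786 in the limma fit. It was -0.20 without wild-type control replicate 3 and -0.24 ± 0.08 (SE, limma) with the neocortex and subiculum covariate.

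Arc stood at 10.45, 10.88, 11.08 and 10.41 in the wild-type arrays and at 10.34, 10.40, 10.27, 10.55 and 10.56 in the APP-PS1 arrays on control chow. Again wild-type replicates 2 and 3 lay above all others and the groups overlapped. Its difference was -0.28 ± 0.13 (SE, limma adjusted p = 0.825), and -0.15 without wild-type control replicate 3. With the neocortex and subiculum covariate it was -0.21 ± 0.09 (SE, limma).

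Ier2, a small nuclear protein of the early wave, had 7.41, 7.43, 7.53 and 7.53 in wild-type and 7.42, 7.25, 7.31, 7.37 and 7.33 in APP-PS1 arrays on control chow. APP-PS1 replicate 1 lay within the wild-type values and the other 4 lay below them. The difference was -0.14 ± 0.07 (SE), limma adjusted p = 0.851. Fos and Npas4 differed by -0.26 ± 0.13 (SE, adjusted p = 0.856) and -0.35 ± 0.18 (SE, adjusted p = 0.856), and Egr1, a zinc finger factor also called Zif268, by -0.21 ± 0.12 (SE, adjusted p = 0.888), all from limma. Without wild-type control replicate 3 the differences were -0.11 for Fos, -0.22 for Npas4 and -0.09 for Egr1, and without wild-type control replicate 4 that of Egr1 was -0.34.

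**Figure D4:**
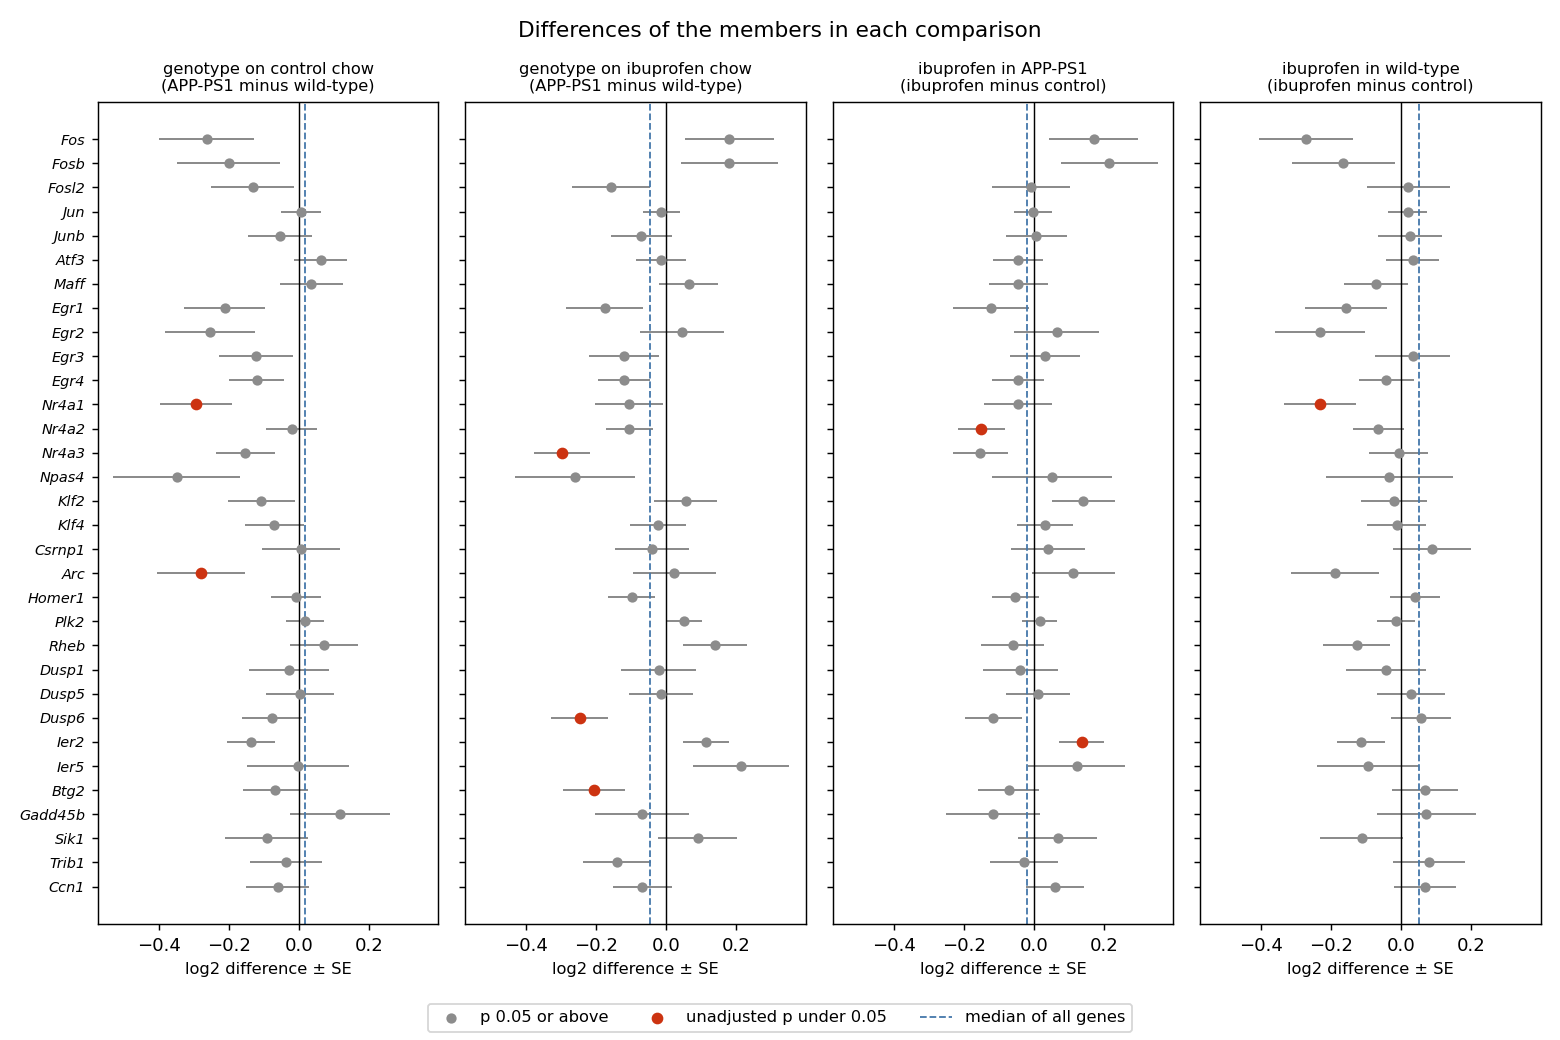
Points are limma differences of each member in the 4 comparisons of 2 groups, on the log2 scale with bars of 1 SE, red where the unadjusted p is under 0.05, and the dashed line is the median difference of all genes. None of the 32 members passed the adjusted threshold in any of these panels, and 8 points are red, of which 7 lie below 0.

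On ibuprofen chow the same genotype comparison gave 3 members at an unadjusted p under 0.05 (9.38%), all lower. This is below the background, which was 18.2% of all genes lower and 24.5% in either direction. No member passed the adjusted threshold, which 54 genes did (0.271%). Of the 32 differences 21 lay below 0 (median -0.03), and the median of all genes was -0.05. The sign of that median changed with the scaling, to 0.03 with median centring (15 below 0) and 0.002 with quantile normalization (16 below 0), and it was 0.02 without the 3 arrays that stand apart and 0.01 without wild-type ibuprofen replicate 5 alone (13 below 0 in both). It was -0.10 without APP-PS1 ibuprofen replicate 3 and -0.05 with the neocortex and subiculum covariate (22 below 0 in both). No control chow array enters this difference, so its arrays are not those of the first comparison.

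Nr4a3, the NR4A receptor also called Nor1, stood at 11.03, 10.87, 10.89, 10.87 and 11.01 in wild-type ibuprofen replicates 1 to 5 and at 10.62, 10.87, 10.34, 10.63 and 10.72 in APP-PS1 ibuprofen replicates 1 to 5. APP-PS1 replicate 2 reached the lowest wild-type values, and the other 4 APP-PS1 arrays lay below all of them. The difference was -0.30 ± 0.08 (SE), limma adjusted p = 0.0907. It had adjusted p = 0.02 without APP-PS1 ibuprofen replicate 2, 0.041 without wild-type ibuprofen replicate 4 and 0.0349 with array weights, in a range of 0.02 to 0.357 over all settings tried. Calls rose over the whole table in those settings, to 444, 1490 and 1004 genes in that order, from 54 as fitted. With the neocortex and subiculum covariate the difference was -0.30 ± 0.08 (SE). The lowest value of all arrays was that of APP-PS1 ibuprofen replicate 3, and without it the difference was -0.23. Dentate granule cell markers also differed between these groups, with means of 9.38 to 9.98 in APP-PS1 ibuprofen and 10.01 to 10.37 in wild-type ibuprofen arrays and no overlap, and their part in this and the other differences on ibuprofen chow was not tested.

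Dusp6, the phosphatase that switches off ERK, had 10.57, 10.47, 10.53, 10.39 and 10.90 in wild-type and 10.19, 10.38, 10.45, 10.22 and 10.36 in APP-PS1 arrays on ibuprofen chow. The groups overlapped, and wild-type replicate 5 was the highest of all. Its difference was -0.25 ± 0.08 (SE, limma adjusted p = 0.136), -0.17 without wild-type ibuprofen replicate 5, and -0.29 with adjusted p = 0.044 without wild-type ibuprofen replicate 4. The last of these settings called 1490 genes in all, beside 54 as fitted. Without the 3 arrays that stand apart it was -0.14.

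Btg2, an antiproliferative gene induced with the early wave, had 9.21, 9.03, 9.11, 8.96 and 9.52 in wild-type and 8.93, 8.95, 8.93, 8.95 and 9.03 in APP-PS1 arrays on ibuprofen chow. APP-PS1 values were close together, with 4 of the 5 below every wild-type array. The difference of -0.21 ± 0.09 (SE, limma adjusted p = 0.172) was -0.12 without wild-type ibuprofen replicate 5 and -0.07 without the 3 arrays that stand apart. Npas4 differed by -0.26 ± 0.17 (SE), Egr1 by -0.18 ± 0.11 (SE) and Nr4a1 by -0.11 ± 0.10 (SE), while Fos and Arc had differences of 0.18 ± 0.13 (SE) and 0.02 ± 0.12 (SE). Without wild-type ibuprofen replicate 5 the differences were -0.09 for Npas4, -0.11 for Egr1 and -0.07 for Nr4a1. Without APP-PS1 ibuprofen replicate 3 they were 0.11 for Fos and -0.09 for Arc, whose sign turned, as it did with the neocortex and subiculum covariate (-0.001).

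Averaged over both diets, which uses all 19 arrays, the genotype difference was below 0 for 26 of the 32 members (median -0.05), beside 54.9% of all genes below 0 (median -0.01). The split was 21 of 32 with median centring, 20 with quantile normalization, 17 with array weights, 23 with the neocortex and subiculum covariate, and 18 both without the 3 arrays that stand apart and without wild-type ibuprofen replicate 5 alone. Here 7 members had an unadjusted p under 0.05, all 7 lower (21.9%), beside 7.7% of all genes in either direction and 5.36% of all genes lower. They were Nr4a3, Nr4a1, Dusp6, Npas4, Egr1, Egr4 and Btg2. No member passed the adjusted threshold, which 5 genes did (0.0251%). The count of 7 was 3 without the 3 arrays that stand apart, 4 with array weights and 9 with the neocortex and subiculum covariate. Of all genes, 9.504%, 16.77% and 7.528% met this rule in that order. Without those arrays or with array weights, the members' share was thus no higher than that of the table. The average is built from the arrays of both comparisons above and is not separate evidence from them.

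By role, the members with an unadjusted p under 0.05 in this average were 2 of 4 EGR factors, 2 of 3 NR4A receptors, 1 of 3 MAP kinase phosphatases, Npas4 among the other factors and Btg2 among the feedback genes. There were 0 of 7 AP-1 and related factors, 0 of 4 synaptic effectors, and Ccn1, a secreted matrix protein, was not among them. Nr4a3 differed by -0.23 ± 0.06 (SE), limma adjusted p = 0.272, and its adjusted p was 0.0205 with array weights and 0.0496 without APP-PS1 ibuprofen replicate 2. Those settings called 342 and 52 genes in all, beside 5 as fitted. Nr4a1 differed by -0.20 ± 0.07 (SE, adjusted p = 0.490), Dusp6 by -0.16 ± 0.06 (SE, adjusted p = 0.515) and Npas4 by -0.30 ± 0.12 (SE, adjusted p = 0.595). Over the leave-outs Nr4a3 ran from -0.26 to -0.19 and Nr4a1 from -0.24 to -0.15, and with the neocortex and subiculum covariate they were -0.23 ± 0.06 (SE) and -0.18 ± 0.05 (SE). Egr1 gave -0.19 ± 0.08 (SE, adjusted p = 0.595), and -0.13 without wild-type control replicate 3. Its neighbour in the family, Egr4, gave -0.12 ± 0.05 (SE, adjusted p = 0.618), and Btg2 gave -0.14 ± 0.06 (SE, adjusted p = 0.633). Without the 3 arrays that stand apart the differences were -0.20 for Npas4, -0.08 for Egr4 and -0.06 for Btg2.

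Egr1 stood at 10.30, 10.62, 10.84 and 10.09 in wild-type control arrays and at 10.22, 10.25, 10.26, 10.22 and 10.56 in wild-type ibuprofen arrays. In APP-PS1 mice it had 10.16, 10.13, 10.17, 10.44 and 10.33 on control chow and 10.08, 10.19, 10.34, 10.06 and 9.96 on ibuprofen chow. The 3 highest arrays were wild-type, and the groups overlapped. Group means were 10.46 ± 0.33, 10.30 ± 0.14, 10.25 ± 0.13 and 10.13 ± 0.14 in the same order (SD, n = 4, 5, 5 and 5). Npas4 had 8.40, 8.94, 9.14 and 8.52 in wild-type control and 8.53, 8.58, 8.66, 8.41 and 9.40 in wild-type ibuprofen arrays, against 8.24, 8.10, 8.32, 8.65 and 8.70 in APP-PS1 control and 8.53, 8.19, 8.77, 8.30 and 8.48 in APP-PS1 ibuprofen arrays. Its group means were 8.75 ± 0.35, 8.71 ± 0.40, 8.40 ± 0.26 and 8.45 ± 0.22 in that order (SD). Its top 3 values were those of wild-type replicates named above as high for the members on average. Egr4 ran from 8.84 to 9.16 in wild-type control, 8.83 to 9.09 in wild-type ibuprofen, 8.80 to 8.96 in APP-PS1 control and 8.65 to 8.94 in APP-PS1 ibuprofen arrays, and so overlapped in every pair of groups. Of all 32 members, the only pair of groups with no overlap was wild-type ibuprofen against APP-PS1 control for Egr3, which is no comparison of the design. The share of all genes with such a gap was not computed, so this count is a description alone.

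**Figure D5:**
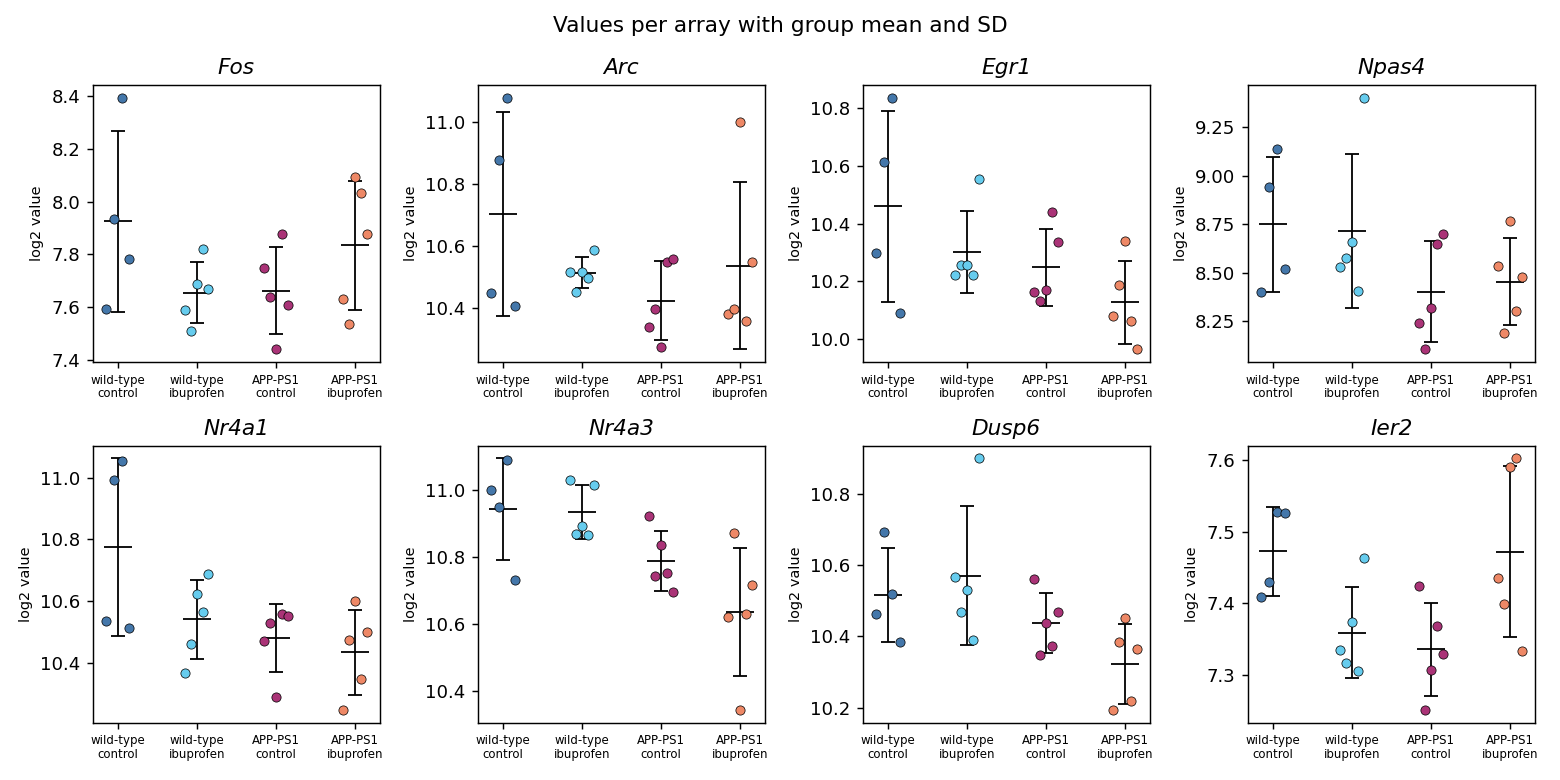
Points are single arrays of 8 members by group on the log2 scale, with the group mean as a bar and 1 SD as whiskers (n = 4 in wild-type control, n = 5 in the others). No pair of groups is separated for any gene shown, and for Nr4a3 4 of the 5 APP-PS1 ibuprofen arrays lie below all wild-type ibuprofen arrays.

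The next question was what ibuprofen did to these genes in APP-PS1 hippocampus. The members were evenly split, with 16 of 32 above 0 and a median of 0.003, and all genes had a median of -0.02. The split was not stable, with 24 of 32 below 0 (median -0.06) without APP-PS1 ibuprofen replicate 3, and 22 above 0 (median 0.05) with quantile normalization or 20 above 0 (median 0.04) with the neocortex and subiculum covariate. No member passed the adjusted threshold, and no gene of the table did (0%), with 1292 genes at an unadjusted p under 0.05. That rule held 2 members (6.25%), beside 6.48% of all genes. Nr4a2, the NR4A receptor also called Nurr1, had 11.10, 11.27, 11.04, 11.12 and 11.13 on control chow and 11.06, 10.95, 11.02, 10.78 and 11.09 on ibuprofen chow, a difference of -0.15 ± 0.07 (SE, limma adjusted p = 0.716). The groups overlapped, with replicate 4 on ibuprofen the lowest, and the difference was -0.10 without it, -0.09 with quantile normalization and -0.12 ± 0.06 (SE) with the neocortex and subiculum covariate. Ier2 had 7.44, 7.40, 7.59, 7.60 and 7.33 on ibuprofen chow beside the control values above, a difference of 0.14 ± 0.06 (SE, limma adjusted p = 0.716). Replicates 1, 3 and 4 on ibuprofen lay above all control arrays, replicate 1 by very little. The Ier2 difference was 0.09 with quantile normalization and 0.15 ± 0.07 (SE) with that covariate. Nr4a3, at 10.92, 10.74, 10.84, 10.75 and 10.69 on control chow, gave -0.15 ± 0.08 (SE, adjusted p = 0.716), and -0.08 without APP-PS1 ibuprofen replicate 3. Fos gave 0.17 ± 0.13 (SE, adjusted p = 0.720) and Arc 0.11 ± 0.12 (SE, adjusted p = 0.767), and without APP-PS1 ibuprofen replicate 3 these were 0.11 and -0.003. With the neocortex and subiculum covariate they were 0.23 ± 0.12 (SE) and 0.22 ± 0.08 (SE). Arc had 10.38, 10.40, 11.00, 10.36 and 10.55 on ibuprofen chow, with replicate 3 alone above the control arrays.

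Ibuprofen in wild-type hippocampus gave 19 of 32 members below 0, a median of -0.02 against 0.05 for all genes (27 of 32 below 0 with median centring or without the 3 arrays that stand apart, 28 with quantile normalization, 11 with the neocortex and subiculum covariate, 29 without wild-type ibuprofen replicate 5, and 16 without wild-type control replicate 2 or replicate 3), and 1 member at an unadjusted p under 0.05 (3.12%), beside 11% of all genes. That member lay lower, as did 1.95% of all genes at the same rule. No gene passed the adjusted threshold (0%), with 2198 at an unadjusted p under 0.05. Nr4a1, which stood at 10.37, 10.46, 10.62, 10.56 and 10.69 in wild-type ibuprofen arrays, differed by -0.23 ± 0.10 (SE, limma adjusted p = 0.432). The groups overlapped, and the difference was -0.14 without wild-type control replicate 3 and -0.09 ± 0.09 (SE) with the neocortex and subiculum covariate. Its group means were 10.77 ± 0.29 in wild-type control, 10.54 ± 0.13 in wild-type ibuprofen, 10.48 ± 0.11 in APP-PS1 control and 10.43 ± 0.14 in APP-PS1 ibuprofen arrays (SD, n = 4, 5, 5 and 5). Those of Arc were 10.70 ± 0.33, 10.51 ± 0.05, 10.42 ± 0.13 and 10.54 ± 0.27 in the same order. Fos had 7.59, 7.93, 8.39 and 7.78 in wild-type control and 7.59, 7.51, 7.69, 7.82 and 7.67 in wild-type ibuprofen arrays. Replicates 2 and 3 on control chow lay above every ibuprofen array, and the others were among them. The Fos difference was -0.27 ± 0.13 (SE, limma adjusted p = 0.432), -0.12 without wild-type control replicate 3, and -0.16 ± 0.14 (SE) with the neocortex and subiculum covariate. Egr2, with 7.98, 8.19, 8.75 and 8.06 on control and 7.96, 8.06, 7.94, 7.98 and 8.11 on ibuprofen chow, gave -0.23 ± 0.13 (SE, adjusted p = 0.433). It was -0.06 without wild-type control replicate 3 and -0.07 ± 0.11 (SE) with the neocortex and subiculum covariate. The wild-type control arrays enter this comparison and the first one alike.

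The interaction asks whether the ibuprofen difference depended on genotype. The median over members was 0.003 with 17 of 32 above 0, beside -0.07 over all genes. It was 0.10 with median centring (27 above 0), 0.14 with quantile normalization (26 above 0) and 0.10 without the 3 arrays that stand apart (24 above 0). It was below 0 with the neocortex and subiculum covariate, at -0.04 (13 above 0), and without wild-type control replicate 3, at -0.03, and it was -0.01 without wild-type control replicate 2 or without APP-PS1 ibuprofen replicate 3 (14 above 0 in each of these leave-outs). In the design as fitted, 2 members had an unadjusted p under 0.05, both higher (6.25%), beside 20.5% of all genes. No gene passed the adjusted threshold (0%), with 4087 at an unadjusted p under 0.05. Ier2 gave 0.25 ± 0.09 (SE, limma adjusted p = 0.208), Fos 0.44 ± 0.19 (SE, limma adjusted p = 0.215) and Fosb 0.38 ± 0.20 (SE, limma adjusted p = 0.272). Fosb, an AP-1 factor with a long-lived splice form, had 8.83, 9.09, 9.55 and 8.77 in wild-type control, 8.73, 8.80, 8.97, 8.80 and 9.18 in wild-type ibuprofen, 8.76, 8.96, 8.68, 8.95 and 8.96 in APP-PS1 control and 8.93, 8.98, 9.61, 8.94 and 8.93 in APP-PS1 ibuprofen arrays. Its 2 highest values belonged to APP-PS1 ibuprofen replicate 3 and wild-type control replicate 3. Group means of Fos were 7.93 ± 0.34 in wild-type control, 7.65 ± 0.12 in wild-type ibuprofen, 7.66 ± 0.16 in APP-PS1 control and 7.83 ± 0.24 in APP-PS1 ibuprofen arrays (SD, n = 4, 5, 5 and 5). In APP-PS1 arrays Fos had 7.75, 7.64, 7.44, 7.88 and 7.61 on control chow and 7.63, 7.54, 8.09, 8.03 and 7.88 on ibuprofen chow. Without wild-type control replicate 3 the interaction was 0.29 for Fos and 0.22 for Fosb. With the neocortex and subiculum covariate it was 0.39 ± 0.17 (SE) for Fos, 0.26 ± 0.12 (SE) for Fosb and 0.24 ± 0.10 (SE) for Ier2, and with quantile normalization it was 0.17 for Ier2.

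The other 19 members reached no unadjusted p under 0.05 in any of the 6 comparisons, their smallest being 0.0879 for Fosl2, and their differences lay between -0.19 and 0.22. Among the AP-1 and related factors Fosl2, Jun, Junb, Atf3 and Maff lay within -0.16 to 0.06. Egr3 ran from -0.12 to 0.03. The Krüppel-like factors Klf2 and Klf4, which endothelial cells also use, ran from -0.11 to 0.16 and from -0.07 to 0.05, and Csrnp1 from -0.05 to 0.09. Homer1 ran from -0.10 to 0.04, and whether its probe set reads the short activity-induced form, the long scaffold or both was not examined. Plk2, a kinase that weakens overactive synapses, ran from -0.01 to 0.05, and Rheb, the GTPase that activates mTORC1, from -0.13 to 0.14. Dusp1 and Dusp5, nuclear MAP kinase phosphatases, stayed within -0.04 to 0.03. Ier5 ran from -0.09 to 0.22, Gadd45b, a stress protein linked to DNA demethylation, from -0.19 to 0.12, the kinase gene Sik1 from -0.11 to 0.18, the pseudokinase gene Trib1 from -0.14 to 0.08 and Ccn1 from -0.07 to 0.07.

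Other genes of the activity programme were taken from 3 lists. Of 29 measured further rapid response genes, none passed the adjusted threshold in the genotype comparison on either diet. On ibuprofen chow 4 lay lower and 1 higher at an unadjusted p under 0.05 (17.2%), beside 24.5% of all genes, and without the 3 arrays that stand apart 0 lay lower and 1 higher. Nfkbiz, an inflammatory regulator, gave -0.23 ± 0.07 (SE, adjusted p = 0.131), Cebpd -0.27 ± 0.09 (SE, adjusted p = 0.144) and the clock gene Per1 -0.25 ± 0.09 (SE, adjusted p = 0.148) there. Errfi1, a feedback inhibitor of the EGF receptor, gave 0.17 ± 0.06 (SE, adjusted p = 0.797) on control chow.

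Among 19 late secreted and synaptic genes, 1 passed. Penk, the proenkephalin gene, had 11.69, 11.16, 11.35, 11.29 and 11.40 in wild-type ibuprofen and 12.13, 11.77, 12.57, 11.78 and 12.54 in APP-PS1 ibuprofen arrays, with no overlap. Its group means were 11.39 ± 0.09 in wild-type control, 11.38 ± 0.19 in wild-type ibuprofen, 11.41 ± 0.13 in APP-PS1 control and 12.16 ± 0.39 in APP-PS1 ibuprofen arrays (SD). With genotype on ibuprofen chow Penk was higher by 0.78 ± 0.13 (SE, limma adjusted p = 0.0128). Its call was lost with the compared groups alone (adjusted p = 0.152), where the other settings gave adjusted p from 1.88e-05 to 0.0482. In that comparison 2 genes of the list lay lower and 1 higher at an unadjusted p under 0.05 (15.8%), below the 24.5% of all genes, with Lonrf3 at -0.33 ± 0.10 (SE, adjusted p = 0.123) and Syt4, a vesicle protein gene, at -0.20 ± 0.07 (SE, adjusted p = 0.146). Nptx1, a neuronal pentraxin, gave 0.13 ± 0.05 (SE, adjusted p = 0.432) for ibuprofen in wild-type mice. Penk also marks striatum and is in the striatal marker list, whose 8 measured members averaged 9.37 to 9.61 in APP-PS1 ibuprofen and 9.29 to 9.62 in wild-type ibuprofen arrays. The medians of these averages were 9.52 and 9.34 in that order, and Penk itself enters them. The part of neighbouring tissue in its difference was not tested.

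Of 17 measured genes that carry the signal to the promoters, 15 lay below 0 with genotype on ibuprofen chow (median -0.12), beside 62.2% of all genes below 0, and 7 had an unadjusted p under 0.05 (41.2%), beside 18.2% of all genes lower, and 0 passed the adjusted threshold. Without the 3 arrays that stand apart, 15 lay below 0 with a median of -0.07 and 4 had an unadjusted p under 0.05, where the share of all genes was 9.96% in either direction. With quantile normalization 12 lay below 0 (median -0.03), and 11 with median centring (median -0.05). Camk4, the kinase that phosphorylates CREB in the nucleus, gave -0.19 ± 0.05 (SE, adjusted p = 0.0726) and Cacna1c, the L-type calcium channel that feeds this route, -0.19 ± 0.06 (SE, adjusted p = 0.127). On control chow 8 of the 17 lay below 0 and 1 had an unadjusted p under 0.05, which was higher. Averaged over diets, Crebbp, the CREB coactivator, gave -0.10 ± 0.03 (SE, adjusted p = 0.436). The interaction for Rps6ka5, a kinase that modifies chromatin at these promoters, was -0.29 ± 0.10 (SE, adjusted p = 0.208). The gap in dentate granule cell markers given beside Nr4a3 lies between the same groups as the differences on ibuprofen chow here.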

How the data were processed

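Hippocampal RNA of 19 mouse samples was read on Affymetrix arrays. Each deposited value is a log2 signal of a probe set, produced by the authors in Partek 6.5 by RMA according to the labels (the submitters' processing notes). RMA settings are not given in the sources used here, and scanner files were not used here. Of 35556 probe sets, 21789 carry 1 gene symbol in an annotation of 2016, 1621 carry several and 12146 are unnamed here. A gene is the brightest probe set with its symbol alone, and 21698 of the probe sets with 1 symbol were found in RefSeq by gene number. Values ran from 3.46 to 14.80 and medians of arrays from 8.06 to 8.14, so the table was used without rescaling.

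Differences came from limma (version 3.58.1, run in R 4.3.3 with version 1.17.8 of data.table), whose single model with a mean per group and an intensity trend covered all arrays (15 residual degrees of freedom, prior 6.65). All p-values are two-sided and were corrected over the 19938 genes (Benjamini-Hochberg), with a threshold of 0.05. The fit was tested on simulated data of this design. Members named in full were those at an unadjusted p under 0.05, at most 6 a comparison, or the 3 of smallest p. Of each other list up to 4 genes of smallest p were named, together with the 10 genes most like Fos. Members and lists were chosen with earlier results of these data known. Alternatives were quantile normalization, median centring, leaving out the dimmest 25% of genes, the mean of a gene's probe sets, array weights, the compared groups alone, the replicate block, covariates for choroid plexus and for neocortex and subiculum, and leaving out each array. Leaving out 3 arrays that stand apart was chosen after seeing the data. Promoter windows came from RefSeq (GRCm38.p6). Figures used Python 3.11.15 and matplotlib 3.10.9.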

Additional observations from a re-analysis of the deposited data

Results flagged for a closer look

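Of 128 sets of values, 1 for each member in each group, 17 had a highest or lowest array far from the rest by Dixon's criterion, where chance gives about 1 in 20. The criterion was applied to the members alone, so whether other genes would give a like share is unknown here. Wild-type ibuprofen replicate 5, which stands apart over the whole table, had the highest value of its group for 51.7% of all genes. It gave 8 of the 17 sets, all high. They were Junb at 9.25 (others up to 8.80), Egr1 at 10.56 (up to 10.26), Egr3 at 10.75 (up to 10.41), Npas4 at 9.40 (up to 8.66), Klf2 at 9.24 (up to 8.75), Csrnp1 at 9.02 (up to 8.56), Dusp1 at 10.68 (up to 10.18) and Ccn1 at 8.59 (up to 8.22). APP-PS1 ibuprofen replicate 3 gave 4, also all high, with Fosb at 9.61 (others up to 8.98), Egr3 at 10.77 (up to 10.32), Csrnp1 at 8.90 (up to 8.49) and Dusp5 at 10.04 (up to 9.66). The other 5 were Nr4a2 low at 10.86 in wild-type ibuprofen replicate 1 (others from 11.12), Homer1 high at 10.76 in APP-PS1 control replicate 1 (up to 10.57), Rheb low at 11.58 in wild-type control replicate 3 (from 11.76), Dusp1 high at 10.56 in wild-type control replicate 2 (up to 10.23) and Btg2 high at 9.03 in APP-PS1 ibuprofen replicate 5 (up to 8.95).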

How the results depend on the processing

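For the 21 differences chosen by the naming rule, 594 values under the alternatives kept their direction and side of the threshold, 6 passed it and none reversed. Among the group values given beside them, that of Arc did turn, for ibuprofen in APP-PS1 mice and for genotype on ibuprofen chow, as the report states. No member passed the adjusted threshold on control chow, in either ibuprofen comparison or in the interaction under any setting. On ibuprofen chow 1 member passed with array weights and 0 to 2 over the leave-outs, 1 without APP-PS1 ibuprofen replicate 2 and 2 without wild-type ibuprofen replicate 4, and in the average over diets 1 passed with array weights and 0 to 1 over the leave-outs. Of all 19938 genes, 1004 passed on ibuprofen chow with array weights, and 444 and 1490 in those leave-outs, beside 54 as fitted. In the average over diets 342 passed with array weights, beside 5 as fitted. The counts of members at an unadjusted p under 0.05 were less stable. For genotype on control chow, 2 as fitted, they were 6 with quantile normalization, 8 with median centring, 5 with array weights, 5 with the compared groups alone, 4 with the replicate block and 0 to 7 over the leave-outs. The shares of all genes were 6.42%, 5.793%, 11.06%, 10.03% and 5.948% in that order, and 2.006% to 9.113% over the leave-outs. For genotype on ibuprofen chow, 3 as fitted, they were 5 with median centring, 6 with array weights, 7 with the neocortex and subiculum covariate and 3 to 5 over the leave-outs. Those of all genes were 21.25%, 22.66% and 26.48% in that order, and 14.84% to 36.03% over the leave-outs. For ibuprofen in APP-PS1 mice, 2 as fitted, they were 1 with quantile normalization, 3 with array weights, 1 with the choroid plexus covariate, 4 with the neocortex and subiculum covariate and 0 to 3 over the leave-outs. All genes had 5.0005%, 16.98%, 7.343% and 5.708% in that order, and 3.671% to 10.38% over the leave-outs. For ibuprofen in wild-type mice, 1 as fitted, they were 3 with quantile normalization, 4 with median centring, 3 with array weights, 0 with the compared groups alone, 3 with the replicate block, 3 with the neocortex and subiculum covariate and 0 to 5 over the leave-outs. The table as a whole had 7.78%, 7.85%, 9.60%, 4.78%, 10.2% and 16.2% in that order, and 4.64% to 22.9% over the leave-outs. For the interaction, 2 as fitted, they were 6 with quantile normalization, 6 with median centring, 6 with array weights, 4 with the replicate block and 1 to 5 over the leave-outs, and the members' median difference was 0.14 with quantile normalization. Here 11.8%, 16.4%, 18.6% and 22.2% of all genes met the rule in that order, and 13.8% to 30.3% over the leave-outs. For the average over diets, 7 as fitted, they were 4 with array weights, 3 without the 3 arrays that stand apart and 3 to 9 over the leave-outs. Of all genes, 16.77% and 9.504% met the rule in the first and second of these, and 5.026% to 11.74% over the leave-outs. The cause of the shifts in these counts was not tested. The replicate block changed no call of a member. With it 197 genes passed the adjusted threshold for genotype on ibuprofen chow, beside 54 as fitted. The share at an unadjusted p under 0.05 was 30.3% there, beside 24.5%. Of the 19 arrays 11 correlated best with an array of their own number. Same-numbered arrays of different groups had deviations that correlated at a median of 0.13 (-0.27 to 0.60, 17 of 27 pairs over 0.1), against -0.05 (29 of 108 over 0.1) for arrays of different numbers. Same-numbered arrays thus tended to deviate alike. The labels name no shared litter or day, so the numbers were not taken as pairs in the main fit, and what such arrays share was not tested. With no detection calls, signal over background limits what can be said of the dimmer members.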
